A study of Rattus norvegicus with 12 samples.

Results

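The potassium channel genes are the rat genes on the array whose symbol has the form Kcn, further letters and a final number, which takes in pore-forming subunits and their auxiliary subunits. The rule found 89 such genes among the 15154 symbols on the array, measured by 116 probes, and 24 of the genes had several probes. Of the 89 genes, 84 were well above background on at least 4 of 11 arrays and were tested, 76 of them on all 11. Kcng4, Kcnj2, Kcnj15, Kcnk9 and Kcnk15 were not well above background on enough arrays and were not tested.

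Total RNA of L6 dorsal root ganglia, which hold the cell bodies of sensory neurons together with satellite glia, Schwann cells, vessels and immune cells, was hybridised to 12 Agilent arrays, 4 for each of 3 groups of 4 rats. All rats were male and of the inbred strain Fischer 344, and the labels name no mutation or transgene. Rats of 6 months fed ad libitum (young_AL, 4 arrays) and rats of 25 to 28 months fed ad libitum (old_AL, 4 arrays) were the age comparison. Rats of 25 to 28 months that had been given food on only 3 days of each week from the age of 6 weeks, a restriction of roughly 40%, were the restricted group (old_CR, 4 arrays). Whole ganglia were measured, so fewer cells of a type and less RNA per cell cannot be told apart in any value below.

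Potassium channels let potassium ions leave the cell and so hold or restore the negative resting voltage. In sensory neurons the voltage-gated Kv families shape the firing threshold and the end of each action potential, calcium-activated and sodium-activated channels set the pause that follows, and leak channels, the K2P family, set the resting voltage. Inward rectifiers also hold the resting voltage, in satellite glia among other cells, and auxiliary subunits change how fast or at which voltage the pores open.

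The value given for a gene is the log2 of its spot intensity minus the 75th percentile of that array, so 0 is the brightness of that percentile and values of different probes are not set against each other. On 11 arrays that percentile was 2627 to 3103 intensity units, with 78.8% to 84.1% of spots well above background. The array old_AL 1 had a 75th percentile of 7327, 71.6% of spots well above background and 4369 spots marked uneven, against 1 to 215 on the others. The results are from the 11 other arrays, and the counts of calls with all 12, with the differences that moved most, are given with them. On old_AL 4 the 75th percentile was 34.3 times the 25th, against 60.4 to 72.6 times on the 10 others used. Of the 25 tested members with a mean value under -4, 11 had their highest value on old_AL 4, against 5 of the other 59 members. The young arrays lay on slide 1, in row 2. Both old groups lay on slide 2, old_AL in row 1 and old_CR in row 2. Slide and age, and slide row and diet, therefore cannot be told apart. Old_AL was the only group in row 1, so the row differed between old_AL and young_AL too. The markers of all neurons that were tested, 13 of 13, were well above background on all 11 arrays, as were 11 of 11 of satellite glia.

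The RefSeq promoter windows of 3 of the 5 members that passed a test below are shown because these genes moved with age, 2 of them downward together. Each runs from 250 bases before the start of the gene to 50 after it in the assembly GRCr8, and capitals mark the GC box, searched as GGGCGG on both strands.

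Kcnj6, chr11:47778299-47778598, minus strand: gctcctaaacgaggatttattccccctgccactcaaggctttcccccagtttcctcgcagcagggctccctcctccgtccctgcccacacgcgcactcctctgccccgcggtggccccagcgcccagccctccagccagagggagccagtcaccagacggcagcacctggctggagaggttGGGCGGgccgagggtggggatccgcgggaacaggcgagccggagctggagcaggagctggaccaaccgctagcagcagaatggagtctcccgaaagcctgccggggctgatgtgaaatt

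Kcnmb4, chr7:54005052-54005351, minus strand: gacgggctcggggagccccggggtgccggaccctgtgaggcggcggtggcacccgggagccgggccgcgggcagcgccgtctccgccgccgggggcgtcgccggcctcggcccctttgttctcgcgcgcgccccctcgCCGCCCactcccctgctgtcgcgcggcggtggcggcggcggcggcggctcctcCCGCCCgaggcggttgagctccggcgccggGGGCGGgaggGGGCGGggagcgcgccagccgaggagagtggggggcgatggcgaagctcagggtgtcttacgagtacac

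Kcna10, chr2:197474464-197474763, plus strand: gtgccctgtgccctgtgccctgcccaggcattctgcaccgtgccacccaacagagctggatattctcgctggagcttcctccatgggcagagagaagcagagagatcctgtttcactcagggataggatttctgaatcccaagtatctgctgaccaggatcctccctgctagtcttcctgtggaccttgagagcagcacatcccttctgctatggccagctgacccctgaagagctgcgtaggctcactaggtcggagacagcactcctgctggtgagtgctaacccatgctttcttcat

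The table held windows for 61 of the members, 67 windows in all. The Kcnj6 window held 1 GC box and that of Kcnmb4 held 4. The box was present in 33 of the 67 member windows (49.3%) and in 33.1% of all 33469 windows of this length. The base composition differed alongside, with a median of 61.0% G and C in the member windows and 51.7% in all. The windows of Kcnj6, Kcnmb4 and Kcna10 held 66.7%, 80.7% and 56.0%. None of the 3 held a cAMP response element (TGACGTCA, in 1.83% of all windows), an E-box (CACGTG, 6.42%) or a TATA box (TATAAA, 14.2%), nor either part of the RE1 element of the repressor Rest (TTCAGCACC, 0.356%, and GGACAG, 21.7%). A match is a run of letters and not a measured site.

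With age at ad libitum feeding, 4 potassium channel genes fell and 1 rose among the 84 tested. Kcnk12, Kcnmb4, Kcnj6 and Kcnv1 were lower in old_AL than in young_AL, each from a different subfamily, and Kcna10 was higher. The falls were modest, to between 0.689 and 0.840 of the young level, and Kcna10 was at 1.33 of it. The calls used limma with Benjamini-Hochberg adjustment over all 20848 genes and unnamed probes tested and a threshold of 0.05. Among all of these 2.99% passed in this comparison (1.85% higher, 1.14% lower), and among the members 5.95%. Without adjustment 28 members (33.3%) had a p under 0.05, 10 higher and 18 lower, against 23.0% of all. The arrays of the groups did not overlap for 17 members (6 higher, 11 lower), against 19.5% of all features tested (11.9% higher, 7.56% lower). The median difference over the members was -0.02 on the log2 scale and over all features 0.04.

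Kcnk12 encodes THIK-2, a K2P subunit. Its values were 0.96, 0.97, 0.99 and 1.03 on the young_AL arrays and 0.73, 0.71 and 0.76 on old_AL 2 to 4. On old_CR they were 0.88, 0.87, 0.90 and 0.97. The 3 old_AL arrays lay below every other array, and the restricted rats lay between, with 1 array inside the young range. The age difference was -0.25 ± 0.04 (SE, log2; limma adjusted p = 0.01554), a level of 0.840 of the young one. Old_CR exceeded old_AL by 0.17 ± 0.04 (limma adjusted p = 0.05592), which missed the threshold.

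Kcnmb4 encodes the neuronal beta subunit of the BK channel, the large-conductance calcium-activated channel, and slows its opening. The young arrays held 0.99, 0.96, 0.96 and 0.97. The old_AL arrays held 0.60, 0.71 and 0.74, and the restricted ones 0.80, 0.90, 0.83 and 0.89. The 3 groups did not overlap at all, with old_AL lowest and young_AL highest. The age difference was -0.28 ± 0.04 (limma adjusted p = 0.01766), and old_CR was above old_AL by 0.17 ± 0.04 (limma adjusted p = 0.06988) and below young_AL by 0.12 ± 0.04 (limma adjusted p = 0.1501).

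Kcnj6 encodes GIRK2, an inward rectifier opened by G proteins when inhibitory receptors are active. It was a dim probe, at -4.73, -4.54, -4.82 and -4.81 in young_AL. It was at -5.15, -5.41 and -5.22 in old_AL and at -5.06, -4.87, -5.10 and -4.62 in old_CR. All 3 old_AL arrays were below all arrays of both other groups, while old_CR overlapped young_AL. The age difference was -0.54 ± 0.12 (limma adjusted p = 0.04981), just inside the threshold, and most other settings lost the call. The diet difference was 0.35 ± 0.12 (limma adjusted p = 0.1237).

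Kcnv1 encodes a silent Kv subunit, which forms no channel alone and modifies Kv2 pores. Its values were 0.01, 0.20, 0.10 and 0.02 in young_AL, and -0.16, -0.26 and -0.20 in old_AL. In old_CR they were -0.20, -0.18, -0.12 and -0.14. Both old groups lay wholly below the young one and overlapped each other. The difference from young_AL was -0.29 ± 0.05 in old_AL (limma adjusted p = 0.02779) and -0.24 ± 0.05 in old_CR (limma adjusted p = 0.03499). It fell in both comparisons, which share the young arrays.

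Kcna10 encodes a Kv1 subunit known from hair cells of the inner ear. The young arrays were at -4.63, -4.60, -4.59 and -4.64. The old_AL arrays were at -4.15, -4.33 and -4.14, and the restricted ones at -4.01, -4.19, -4.01 and -4.20. Every old array, old_AL 1 at -3.99 included, was above every young array. The difference was 0.41 ± 0.06 in old_AL (limma adjusted p = 0.02215) and 0.51 ± 0.06 in old_CR (limma adjusted p = 0.01012), levels of 1.33 and 1.42 of the young one. The call for old_CR against young_AL was kept when any 1 of the 11 arrays was left out.

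**Figure D1:**
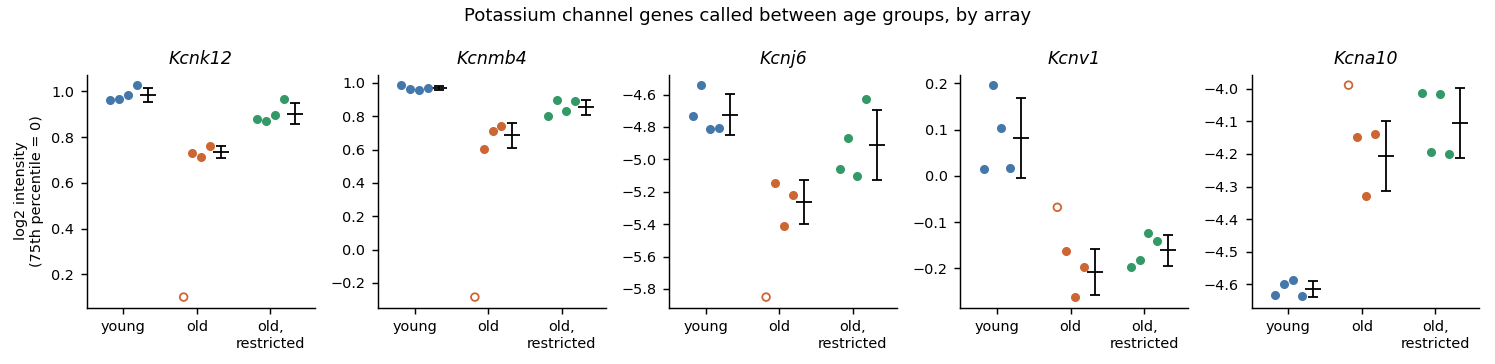
Values of the 5 members that passed with age, 1 point an array (log2 intensity, with 0 the 75th percentile of the array), for young ad libitum, old ad libitum and old restricted rats. Bars are mean ± SD of 4, 3 and 4 arrays, the open circle is old_AL 1, which is in no bar, and each panel has its own axis. Kcnk12, Kcnmb4 and Kcnj6 are lowest in old ad libitum rats, while Kcnv1 is low and Kcna10 high in both old groups.

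The direction of these 5 age differences was the same under all 24 other settings, and the call was kept under 20 for Kcnk12, 19 for Kcnmb4, 18 for Kcna10, 17 for Kcnv1 and 5 for Kcnj6. With all 12 arrays no member passed in any comparison by limma, with 16, 10 and 7 of 84 (19.0%, 11.9% and 8.33%) at an unadjusted p under 0.05 in the age, diet and old_CR against young_AL comparisons, against 6.79%, 6.11% and 2.78% of all features. Of all features 0.0144%, 0% and 0.0144% passed. The age difference of Kcnk12 was then -0.41 and that of Kcnmb4 -0.53, and those of Kcnj6, Kcnv1 and Kcna10 were -0.68, -0.26 and 0.46. The diet differences of Kcnk12 and Kcnmb4 were 0.33 and 0.41. The median standard error of the age difference over the members was 0.21 with 12 arrays and 0.09 with 11. Without young_AL 3 no member passed with age, without young_AL 2 only Kcnk12 did, and without old_AL 3 there were 3 calls. The processing of the signal moved the split of the age calls, and it moved that of all features with it. After quantile normalization 0 members were higher and 11 lower, where 5.12% of all features passed and 22.9% of their calls were higher. After median centring 2 were higher and 20 lower (9.09% of the calls higher), where 16.3% of all passed, 9.43% of the calls higher. After normexp background correction 8 were higher and 5 lower, where 18.2% of all passed, 86.3% of the calls higher. In the fit of 11 arrays 61.9% of the calls of all features were higher.

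In the diet comparison, old_CR against old_AL, no potassium channel gene passed in the 11 arrays by limma, where 1.06% of all features did. The members at an unadjusted p under 0.05 numbered 28 (33.3%), 14 higher and 14 lower, against 26.3% of all. The groups did not overlap for 23 members (12 higher, 11 lower), against 23.4% of all (8.04% higher, 15.3% lower). Other settings called from 0 to 21 members, and the split changed between settings for the members and for all features. It was 2 higher and 0 lower after quantile normalization, where 1.89% of all features passed and 69.5% of their calls were higher. It was 19 and 2 after median centring (15.8% of all, 92.2% of the calls higher) and 3 and 9 after normexp (22.5% of all, 10.6% of the calls higher). In the fit of 11 arrays 24.3% of the calls of all features were higher. Without old_AL 2, Kcnh3 and Kcnk16 passed, both lower in old_CR.

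Between old_CR and young_AL, which differ in both age and feeding, Kcna10 rose and Kcnv1 fell. These 2 of 84 (2.38%) stood beside 2.32% of all features (0.753% higher, 1.57% lower). The groups did not overlap for 14 members (3 higher, 11 lower), against 15.9% of all (5.56% higher, 10.3% lower). The Kcnv1 call was kept in 4 of the 11 fits that leave out an array. Without young_AL 1, 2 or 3, or without any 1 of the old_CR arrays, Kcna10 alone passed, and without young_AL 4 or old_AL 4 there were 4 calls. The median difference was -0.04 over the members and -0.02 over all features.

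Old_AL lay wholly above or below both other groups for 8 members (9.52%), against 8.79% of all features tested. Kcnk12, Kcnmb4, Kcnj6, Kcnn2 and Kcnip3 were lower there and Kcng3, Kcnh3 and Kcnk16 higher. Of all 20848 features tested, 538 were lower there and 1294 higher. The age and diet comparisons share the old_AL arrays, so a deviation of that group enters both with opposite sign. Old_AL was also the only group in slide row 1, so group and row cannot be told apart here.

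**Figure D2:**
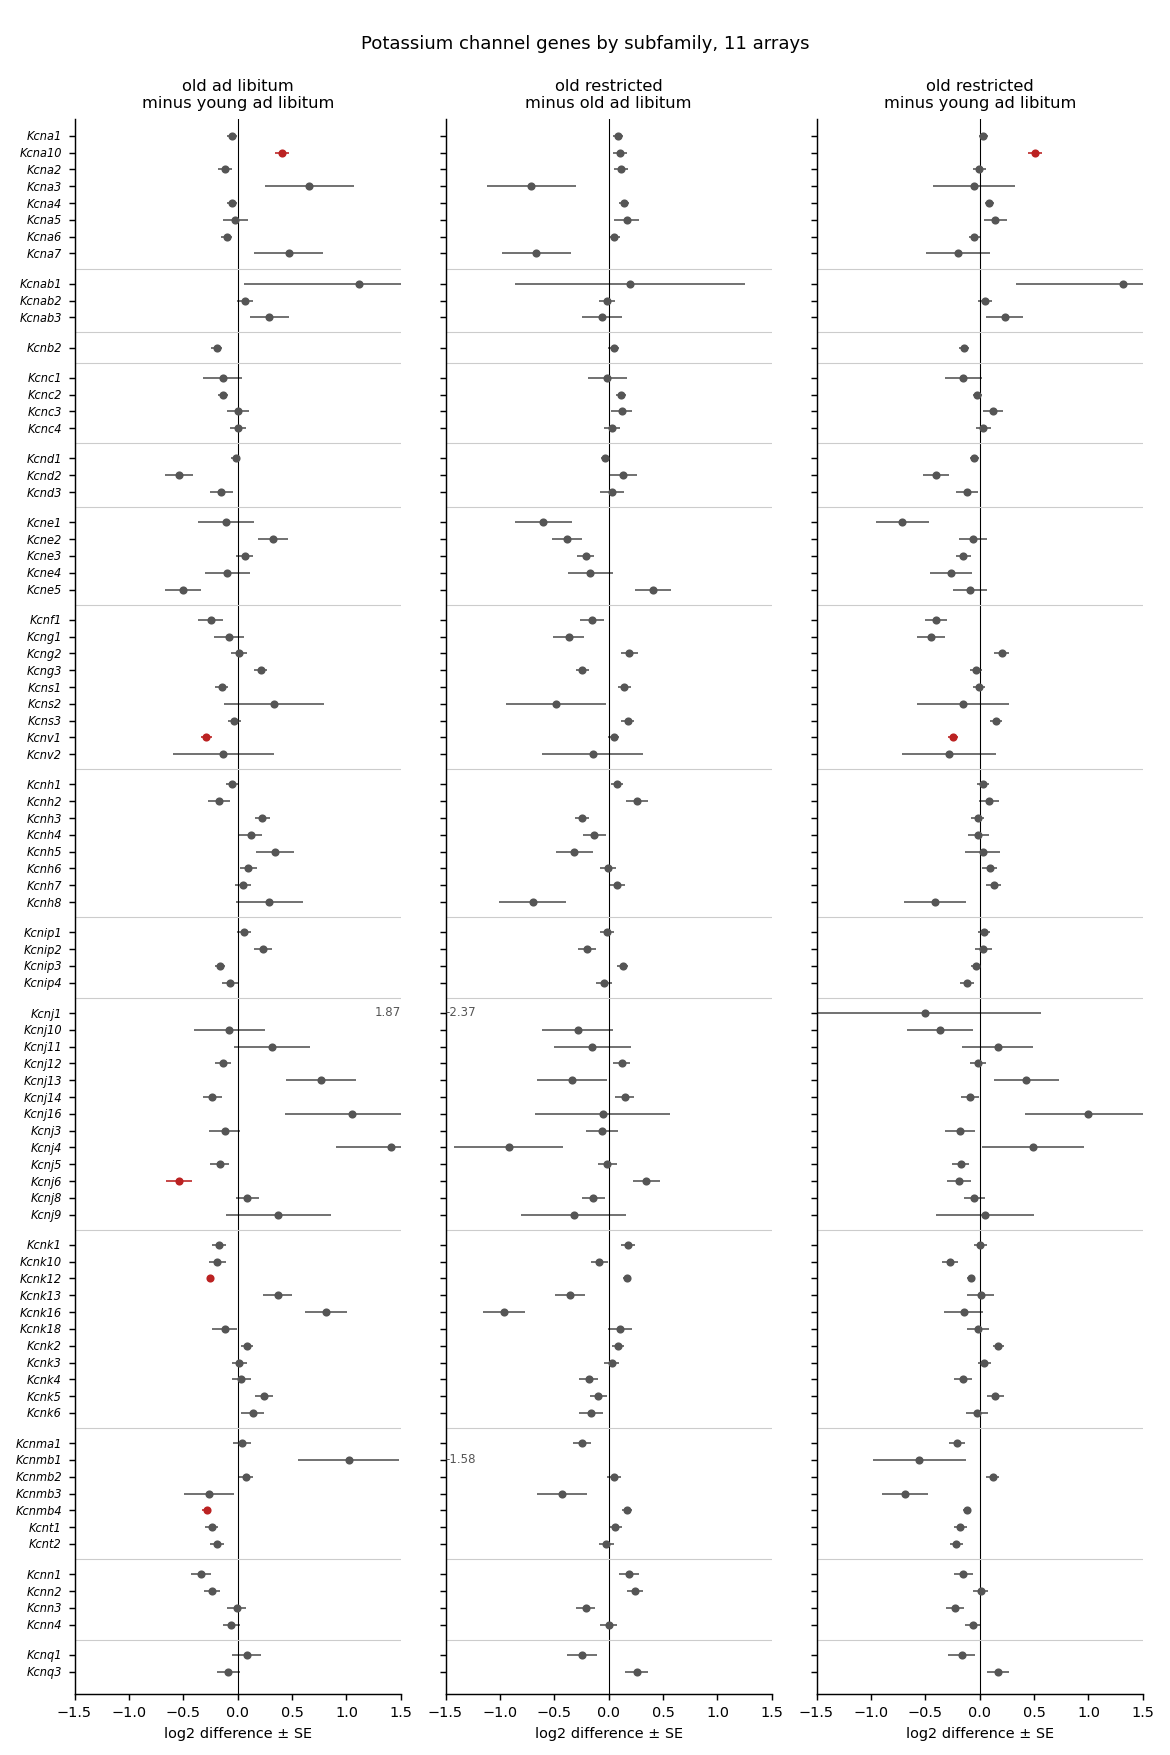
Differences between group means for the tested members reported (log2, ± SE of the limma fit), 1 row a gene and grey lines between subfamilies, for the 3 comparisons on 11 arrays. Red points passed at an adjusted p of 0.05, and the differences of Kcnj1 (1.87 and -2.37) and Kcnmb1 (-1.58) that leave the axis are printed as numbers. Most members lie near 0, with wide error bars for dim inward rectifiers.

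The Kv1 subunits form the channels beside the nodes of Ranvier and at the axon's initial part. Besides Kcna10, none of the 8 passed in any of the 3 comparisons. Kcna1, a main axonal subunit, was at 3.77, 3.87, 3.76 and 3.92 in young_AL, 3.80, 3.76 and 3.77 in old_AL, and 3.90, 3.85, 3.83 and 3.87 in old_CR. Its age difference was -0.05, with a 95% interval of -0.15 to 0.05, and the arrays overlapped. Kcna2, its usual partner in the axon, differed by -0.12 (interval -0.27 to 0.03). Kcna4, the subunit of a rapidly inactivating current in small neurons, was lower in each old_AL array (-0.39, -0.40 and -0.34) than in each old_CR array (-0.24, -0.30, -0.19 and -0.20). That diet difference was 0.14 ± 0.04 (limma adjusted p = 0.09894). None of the 3 Kv beta subunits passed. Kcnab3 had the smallest p of these with age (0.29 ± 0.18) and with diet (-0.06 ± 0.18), with limma adjusted p = 0.3617 and 0.8492.

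The Kv2 subunits carry the delayed rectifier of the cell body. Kcnb2 was at 1.25, 1.28, 1.39 and 1.19 in young_AL against 1.08, 1.05 and 1.11 in old_AL and 1.12, 1.16, 1.06 and 1.16 in old_CR. Both old groups lay below the young one without overlap, with an age difference of -0.19 ± 0.05 (limma adjusted p = 0.06766). Among the silent subunits that join them, Kcns1, known from myelinated sensory neurons, differed by -0.15 ± 0.06 with age (limma adjusted p = 0.1839). Kcng3 was higher in old_AL (-4.42, -4.58 and -4.48) than in young_AL (-4.68, -4.68, -4.74 and -4.72), a difference of 0.21 ± 0.06 (limma adjusted p = 0.08132). Of the 9 silent subunits tested, only Kcnv1 passed.

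Kv3 subunits serve fast firing, and none of the 4 passed. Kcnc2 had an age difference of -0.13 ± 0.05 (limma adjusted p = 0.1413) and Kcnc1 of -0.14 ± 0.18 (limma adjusted p = 0.6684). A second Kcnc2 probe, fitted singly, gave -0.001 ± 0.08 (limma adjusted p = 0.9936). Kv4 subunits carry the A-type current that delays firing. Kcnd2 was at -4.20, -4.49, -4.06 and -4.29 in young_AL, -4.91, -4.98 and -4.50 in old_AL and -4.59, -4.60, -4.80 and -4.67 in old_CR. Both old groups lay below the young one, and the age difference of -0.54 ± 0.13 missed the threshold (limma adjusted p = 0.05786). A second Kcnd2 probe, in a fit of single probes, gave -0.55 ± 0.10 (limma adjusted p = 0.0301). Kcnd3, the A-type subunit of nociceptors, differed by -0.15 ± 0.11 (limma adjusted p = 0.4224). Of the 4 Kv4-binding calcium sensors none passed, and Kcnip3, also known as the transcriptional repressor DREAM, had the smallest p with age (-0.16 ± 0.05, limma adjusted p = 0.0984).

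The Kv7 subunits carry the M current, a brake on repetitive firing. Kcnq3 differed by -0.09 ± 0.11 with age and 0.26 ± 0.11 with diet (limma adjusted p = 0.6511 and 0.1725). None of the 5 Kcne auxiliary subunits passed. Kcne3, which speeds and opens Kv7 channels, had the smallest p with diet (-0.21 ± 0.08, limma adjusted p = 0.13). Kcne5 was near background, well above it on 3 young_AL arrays, no old_AL array and 1 old_CR array. With each old_AL array set no lower than its signal limit, the young_AL mean was 1.35-fold above old_AL. This fold leaves out the spread between arrays, and not every young_AL array was well above background. No such fold is given for old_CR, with only 1 array well above background. The probe, which has 1 spot, gave -0.50 ± 0.17 with age (95% interval -0.876 to -0.125) and 0.41 ± 0.17 with diet. Neither difference passed (limma adjusted p = 0.1231 and 0.1636). A second Kcne5 probe had an age difference of the other sign (0.14 ± 0.52). The Kcnh subunits include the ether-a-go-go and ERG channels, and none of the 8 passed. Kcnh3 was at -2.56, -2.46 and -2.24 in old_AL, above all young_AL (-2.69 to -2.63) and all old_CR (-2.72 to -2.63) arrays, by 0.23 ± 0.07 over young_AL (limma adjusted p = 0.08957).

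The K2P family was measured by 11 tested members, of which Kcnk12 alone passed by its brightest probe. The channels best known in sensory neurons overlapped between age groups. Kcnk2 (TREK-1, opened by stretch and warmth) was at 1.08, 1.14, 1.11 and 1.24 in young_AL, 1.17, 1.19 and 1.33 in old_AL and 1.31, 1.23, 1.39 and 1.33 in old_CR. Its age difference was 0.09 with an interval of -0.04 to 0.21, and the age differences of its 3 probes were not all of one sign. Kcnk18 (TRESK, linked to migraine) had an age difference of -0.12 with an interval of -0.38 to 0.13, and Kcnk10 (TREK-2) of -0.19 with an interval of -0.36 to -0.01 (limma adjusted p = 0.1959). In the fit of single probes a second Kcnk10 probe passed with age (-0.23 ± 0.05, limma adjusted p = 0.04856) and in old_CR against young_AL (-0.23 ± 0.05, limma adjusted p = 0.03947), while the first did not (limma adjusted p = 0.2004 and 0.08731). Kcnk16, a subunit known from pancreatic islets, showed the widest gap of the family. It was at -5.06, -5.16, -5.22 and -4.90 in young_AL, -4.58, -4.46 and -3.77 in old_AL and -5.12, -5.09, -5.13 and -5.57 in old_CR. Old_AL lay above both other groups, by 0.81 ± 0.19 over young_AL (limma adjusted p = 0.05548) and 0.96 over old_CR (-0.96 ± 0.19, limma adjusted p = 0.05183). Its highest value was on old_AL 4, and its 2 other probes were well above background on no array.

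**Figure D3:**
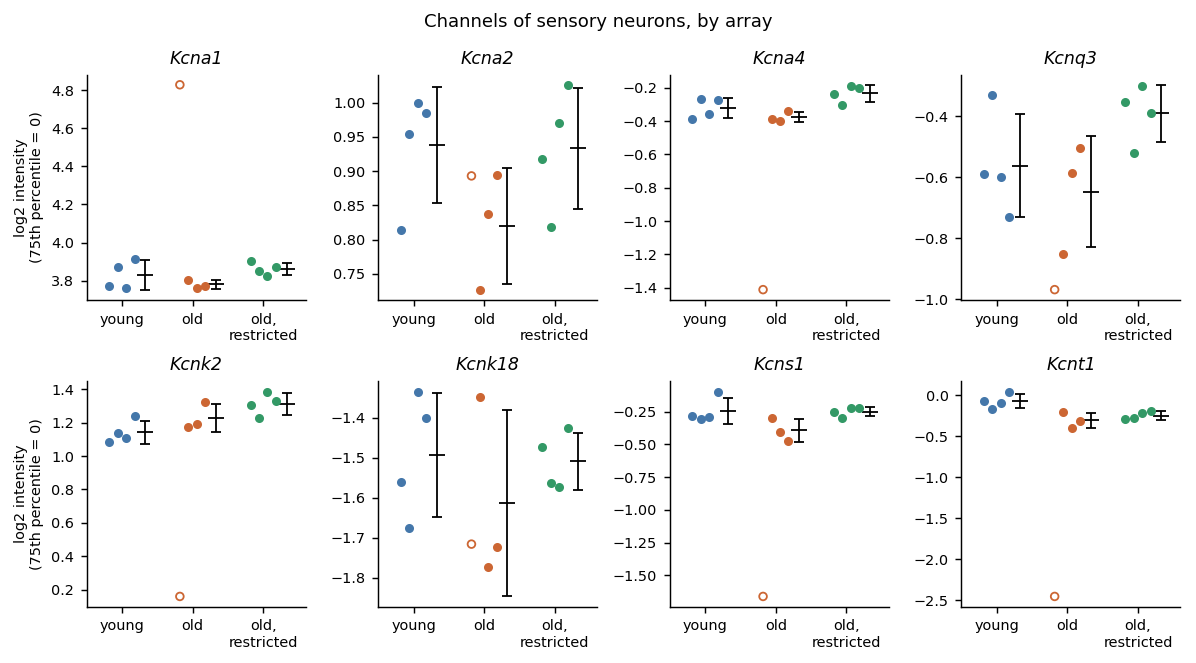
Values by array for 8 channel genes known in sensory neurons (log2 intensity, with 0 the 75th percentile of the array), in young ad libitum, old ad libitum and old restricted rats. Bars are mean ± SD of 4, 3 and 4 arrays and the open circle is old_AL 1. None passed in any comparison, and the Kcnt1 arrays of both old groups lie below the young ones.

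Of the inward rectifiers 13 were tested, with Kcnj6 the only call. Kcnj3, which pairs with the Kcnj6 product in GIRK channels, was at 0.49, 0.32, 0.35 and 0.52 in young_AL, 0.17, 0.12 and 0.61 in old_AL, and 0.55, 0.02, 0.15 and 0.24 in old_CR, an age difference of -0.12 ± 0.15 (limma adjusted p = 0.6325). Kcnj10, the satellite glia channel that clears potassium, was well above background on 10 of 11 arrays and ranged from -6.77 to -5.30 in old_AL alone. Its age difference of -0.08 had an interval of -0.82 to 0.66, so these arrays do not resolve a change in either direction.

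Among calcium-activated and sodium-activated channels, Kcnma1, the pore of the BK channel whose beta subunit Kcnmb4 fell, had an age difference of 0.04 ± 0.08 (interval -0.14 to 0.22). Its diet difference was -0.25 ± 0.08 (limma adjusted p = 0.1127), and the age differences of its 3 probes were not all of one sign. Kcnt1, the sodium-activated Slack channel, was at -0.07, -0.17, -0.10 and 0.04 in young_AL, -0.21, -0.40 and -0.32 in old_AL and -0.30, -0.28, -0.22 and -0.19 in old_CR. Both old groups lay below the young one, by -0.24 ± 0.06 in old_AL (limma adjusted p = 0.06557). The small and intermediate calcium-activated channels, which include the SK channels that set the pause after a spike, gave no call among 4. Kcnn1 was at -3.43, -3.40 and -3.44 in old_AL and between -3.26 and -2.87 in young_AL, a difference of -0.34 ± 0.09 (limma adjusted p = 0.07842). A second Kcnn1 probe, in the fit of single probes, gave -0.15 ± 0.12 (limma adjusted p = 0.4634). Kcnn2 was lower in old_AL (-4.63, -4.55 and -4.63) than in young_AL (-4.53 to -4.18) and old_CR (-4.42 to -4.29), with differences of -0.23 ± 0.07 and 0.24 ± 0.07 (limma adjusted p = 0.1093 and 0.09637).

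Of 16 genes listed as known in sensory neurons or satellite glia, which include Kcna1, Kcna4, Kcnq3, Kcnk2, Kcnk18, Kcnt1 and Kcnma1, none passed by limma in any comparison. At an unadjusted p under 0.05 there were 4 with age, 5 with diet and 4 in old_CR against young_AL, beside 23%, 26.3% and 18.3% of all features. With age 13 of the 16 had a negative difference, as had 8464 of all 20848 features, and the median was -0.12. With all 12 arrays the age differences of Kcna1, Kcnk2, Kcnj3 and Kcnma1 changed sign, to 0.21, -0.18, 0.04 and -0.66. Those of Kcng3, Kcne3 and Kcnab3, outside the 16, changed sign as well, to -0.31, -0.44 and -0.24. The diet differences of Kcna1, Kcnc1, Kcng3, Kcne3, Kcnk10, Kcnj10 and Kcnma1 changed sign too, to -0.18, 0.36, 0.28, 0.28, 0.02, 0.23 and 0.45. That of Kcnab3 changed to 0.465. Age differences that kept their sign and grew by over 1.5 times were those of Kcnh3 (1.23), Kcnt1 (-0.77), Kcnn1 (-0.69), Kcnn2 (-0.37), Kcnip3 (-0.47), Kcns1 (-0.46), Kcna4 (-0.31), Kcnc1 (-0.51), Kcnc2 (-0.30), Kcnk10 (-0.29), Kcnj10 (-0.59) and Kcnq3 (-0.17). None of these passed with 12 arrays.

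In 5 members, named here after their values were seen, the means of old_AL and young_AL differed by over 1 on the log2 scale: Kcnab1, Kcnj1, Kcnj4, Kcnj16 and Kcnmb1. None passed, and only Kcnab1 was well above background on all 11 arrays. Kcnab1, a Kv1 beta subunit, was at 2.57, 2.82, 2.66 and -2.22 in young_AL, 2.54, 2.54 and 2.65 in old_AL and 2.79, 2.73, 2.81 and 2.78 in old_CR. On young_AL 4 its 2 spots read -7.15 and 2.71, and neither carried an outlier flag. The age difference was 1.12 ± 1.06 with that array and -0.11 ± 0.06 without it (limma adjusted p = 0.5394 and 0.3732). A second Kcnab1 probe, well above background on all 11 arrays, gave -0.02 ± 0.06 in the fit of single probes (limma adjusted p = 0.8767). Kcnj1, a renal inward rectifier, had a single spot that read -1.76 on old_AL 3 and -6.74 and -6.85 on the other old_AL arrays used. Its age difference was 1.87 ± 1.16 with old_AL 3 and 0.19 ± 0.64 without it (limma adjusted p = 0.3567 and 0.886). Kcnj4 differed by 1.41 ± 0.50, and by 0.63 ± 0.19 without old_AL 4, where it was at -4.87 (limma adjusted p = 0.1433 and 0.1134).

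**Figure D4:**
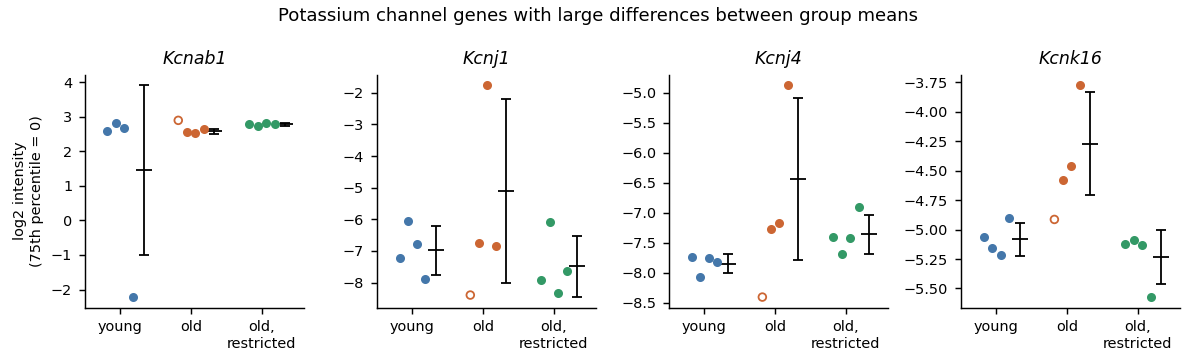
Values by array of 4 members with large differences between group means (log2 intensity, with 0 the 75th percentile of the array). Bars are mean ± SD of 4, 3 and 4 arrays and the open circle is old_AL 1. Single arrays stand far from their group for Kcnab1 (young_AL 4), Kcnj1 (old_AL 3) and Kcnj4 (old_AL 4), while for Kcnk16 the 3 old ad libitum arrays used lie above all arrays of the other groups.

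Of 37 genes that work with potassium channels (HCN pacemaker channels, scaffolds, sodium pumps, potassium-chloride cotransporters and others) 33 were tested. With age 1 rose and none fell, with diet 1 rose and none fell, and in old_CR against young_AL 2 rose. These shares of 3.03%, 3.03% and 6.06% stood beside 2.99%, 1.06% and 2.32% of all features. Slc12a5, the potassium-chloride cotransporter KCC2 that lowers chloride in central neurons, was at -4.09, -4.05, -3.90 and -3.98 in young_AL and -3.95, -3.88 and -3.98 in old_AL. It was at -3.59, -3.62, -3.62 and -3.58 in old_CR, above every ad libitum array of the 11. The difference was 0.34 ± 0.05 against old_AL (limma adjusted p = 0.03167) and 0.40 ± 0.04 against young_AL (limma adjusted p = 0.006567), and 14 and 21 of 24 other settings kept these calls. The array old_AL 1, left out here, was at -3.60, and with it the difference between the old groups was 0.25 ± 0.10 (limma adjusted p = 0.6432). Slc12a7, the cotransporter KCC4, rose by 0.24 ± 0.05 in old_AL and by 0.22 ± 0.05 in old_CR against young_AL (limma adjusted p = 0.04044 and 0.04125). Its 7 old arrays used were at 0.11 to 0.25 and its young ones at -0.09 to 0.04, old_AL 1 was at -0.43, and 8 and 10 of 24 other settings kept the calls.

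Markers of other cells moved with the same groups. Beside the counts of calls below, 2.99% of all features passed with age (1.85% higher, 1.14% lower). With diet 1.06% of all features passed, and in old_CR against young_AL 2.32%. Of 15 macrophage markers 6 passed higher with age, with a median difference of 0.92, and the summed level of the list was 4.65 to 5.32 in young_AL, 5.23 to 5.78 in old_AL and 4.85 to 5.54 in old_CR. Of 13 tested markers of large-diameter neurons 5 passed lower with age, with a median of -0.16. Their summed level was 8.17 to 8.19 in young_AL, 7.94 to 8.02 in old_AL and 8.02 to 8.10 in old_CR. Of 13 tested markers of all neurons 2 were lower (median -0.06), of 13 of nociceptors 1 was higher and 1 lower (median -0.004), and of 11 of satellite glia 1 was lower (median -0.02). The summed level of the list for all neurons was 8.53 to 8.65, 8.58 to 8.64 and 8.48 to 8.59 in young_AL, old_AL and old_CR. Its mean level was 3.21 to 3.26, 3.14 to 3.18 and 3.15 to 3.24 in that order, so by this measure old_AL lay below young_AL. Of 11 T cell markers 1 was higher (median 0.91), and of 12 of myelinating Schwann cells none passed (median -0.15). Of 4 neutrophil and marrow markers 2 were higher (median 1.86), and of 4 of adipocytes 1 was (median 1.69). Of 11 markers of pericytes and smooth muscle 1 was higher (median 0.29). None of 6 erythroid (median 0.945), 8 endothelial (median 0.201) or 9 fibroblast markers (median 0.211) passed with age. At an unadjusted p under 0.05 with age were 13 macrophage, 10 T cell and 5 erythroid markers, all higher. The same held for 7 markers of large-diameter neurons, all lower, beside 23% of all features in either direction. In old_CR against young_AL, 3 of 11 satellite glia markers were lower (median -0.09). The mean level of that list was 0.89 to 0.95 in old_CR against 1.09 to 1.14 in young_AL. Its summed level overlapped, at 6.835 to 6.938 in old_CR and 6.92 to 7.01 in young_AL. In that comparison 1 of 12 Schwann cell markers was lower (median -0.30). At an unadjusted p under 0.05 there were 9 lower, beside 18.3% of all features in either direction. Of 15 macrophage markers 3 were higher (median 0.48), of 4 of adipocytes 2 (median 1.31) and of 4 of neutrophils and marrow 1 (median 1.39). Of 13 large-diameter neuron markers 2 were lower (median -0.04), of 13 of all neurons 1 (median -0.05) and of 9 of fibroblasts 1 (median -0.15). Of 6 central glia markers 1 was higher (median 0.13). With diet no macrophage marker passed (median -0.44), 1 satellite glia marker was lower (median -0.14) and 1 marker of pericytes and smooth muscle was lower (median -0.36). Of 13 markers of all neurons 1 was higher with diet (median 0.001), as was 1 of 6 of central glia (median -0.07). No marker of large-diameter neurons passed with diet (median 0.09), nor did any of 6 erythroid markers (median -0.659). The part of these shifts in the channel values was not tested.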

How the data were processed

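The deposited files hold spot intensities, linear in scale, which the authors made with Agilent Feature Extraction 10.7, per the submitters' processing notes, already background-subtracted and detrended per the file headers and not scaled between arrays. The flags for outliers and for spots well above background in the deposited files come from the same software. The deposited table of the whole series holds the same intensities (largest difference 0). Control spots (4259) were left out, flagged outlier spots set to missing, and the 58717 gene spots gave 30367 probes. Log2 of the intensity minus the 75th percentile of each array was averaged over the spots of a probe. A probe was kept if it was well above background (by a share of 0.5 or more of its spots) on 4 or more arrays, and the brightest probe stood for a gene. A RefSeq list of the assembly GRCr8 gave the symbols of 17998 probes. The 12369 others were tested under their accession.

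Tests were run with limma 3.58.1 (lmFit, eBayes) under R 4.3.3 (data.table package, version 1.17.8), in a single fit of 11 arrays with a mean per group, and p-values were Benjamini-Hochberg adjusted over all features tested (threshold 0.05). Array numbers are those of the source names, and the number of arrays limits the precision. The array old_AL 1 was left out because its scan stands apart. Summed levels of marker lists are log2 of the sum of scaled intensities. Mean levels are the mean of the log2 values of the tested markers. The fold given for Kcne5 sets the young_AL mean against each old_AL array's lowest signal well above background. Where the probe's own signal on an array was higher, that signal was used.

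The named genes are every member that passed, the member with the smallest p of each subfamily with age and with diet, 16 listed channels, and the partner genes that passed. The members, lists and rule were chosen with earlier results of these data known. Some members are not reported here by name and stand only in the counts. Alternatives were quantile normalization, median centring, normexp (offset 50), no filter, a filter on every array, averaged probes per gene, each probe fitted singly, the series table, an intensity trend, array weights, all 12 arrays, the compared groups alone, a block for the replicate number, and leaving out each array.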

Additional observations from a re-analysis of the deposited data

Results flagged for a closer look

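Chance sets 1 sample apart from its group in about 1 in 20 groups of 4, and in 4 of the 70 groups of named genes examined the gap to the nearest array exceeded Dixon's critical share of the range. For Kcnn1, an SK channel, old_CR 2 was at -3.42 while the other 3 restricted arrays were at -3.19 to -3.14. For Kcnk16, a K2P channel, old_CR 4 was at -5.57 and the other 3 at -5.13 to -5.09. For Kcnd3, an A-type subunit, young_AL 1 was at -1.34 and the other 3 at -1.01 to -0.95. For Kcns1, a silent subunit, young_AL 4 was at -0.10 and the other 3 at -0.31 to -0.28.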

How the results depend on the processing

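The calls among the members were 5 with age, 0 with diet and 2 in old_CR against young_AL. In that order they were 11, 2 and 2 after quantile normalization, 22, 21 and 1 after median centring, 13, 12 and 1 after normexp, 4, 0 and 1 with no filter, 6, 2 and 2 with the filter on every array, 5, 0 and 3 with averaged probes per gene and 6, 0 and 3 with each probe fitted singly. They were 4, 0 and 2 with the series table, 9, 3 and 2 with an intensity trend, 7, 5 and 9 with array weights, and 0, 0 and 4 with the compared groups alone. With all 12 arrays, and with the replicate number as a block, they were 0, 0 and 0. After removal of group means, values of arrays with the same number correlated at -0.09 to 0.09 (10 pairs). Arrays with different numbers correlated at -0.13 to 0.10 (30 pairs). The sample titles carry other numbers than the source names, and these correlations cannot tell whether the numbers pair the rats. Leaving out 1 array at a time gave 0 to 5, 0 to 2 and 1 to 4 calls. Median centring moved the median age difference of all features from 0.04 to -0.13 and the diet difference from -0.06 to 0.12. The 7 calls kept their sign in all settings. Among named results without a call, 38 of 94 changed sign in at least 1 setting. Of all features 2.99%, 1.06% and 2.32% passed, against 16.3%, 15.8% and 0.921% after median centring, 18.2%, 22.5% and 2.24% after normexp, and 4.53%, 6.09% and 8.53% with array weights. The cause of the changes was not tested. Dim probes, those of several inward rectifiers and Kcne subunits, are limited by signal close to background.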

Other observations

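Replicate spots of a member probe lay close together. Over 879 pairs of a member and an array with several spots, the median range between spots was 0.07 on the log2 scale and 4 exceeded 2. These 4, named after their values were seen, were Kcnab1 on young_AL 4 (range 9.87), Kcnh8 on old_AL 2 (3.88), Kcns2 on young_AL 4 (3.23) and Kcna3 on old_AL 4 (3.15). Of the 21 members with more than 1 tested probe, 9 had age differences of opposite sign between probes and 7 had diet differences of opposite sign. Kcnk12, Kcnmb4, Kcnj6, Kcnv1 and Kcna10 are not among the members with several probes, so no second probe could be set beside their calls.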
